A study of Saccharomyces cerevisiae W303 with 16 samples.

Results

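The mRNAs of 40 genes for the machinery that starts translation and loads tRNAs were followed in *Saccharomyces cerevisiae*: 19 genes for initiation factors (eIF1, eIF1A, eIF2, eIF3, eIF4A, eIF4B, eIF4E, eIF4G, eIF5, eIF5B and the helicase Ded1) and 21 genes for cytosolic aminoacyl-tRNA synthetases. The genes were chosen by name, from the known function of their products, by a rule that uses no measured value. Earlier results of these data were known when they were chosen. All 40 were found among the 6952 transcripts of the RNA-Seq files and the 6575 transcripts of the readthrough tables, and all 40 passed the filter on low counts.

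Initiation begins when eIF4E binds the cap of an mRNA and, with the scaffold eIF4G and the helicase eIF4A, prepares the leader for scanning. A small ribosomal subunit carrying eIF1, eIF1A, eIF3, eIF5 and a complex of eIF2, GTP and the initiator tRNA then scans to the start codon, where eIF5B joins the large subunit. Aminoacyl-tRNA synthetases attach each amino acid to its tRNA and fall into class I and class II by the fold of their catalytic domain. In yeast, genes for the translation machinery are known to be repressed as a group after many kinds of stress, heat among them.

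RNA-Seq of rRNA-depleted total RNA and ribosome profiling, in which the stretches of mRNA covered by ribosomes (footprints) are sequenced, were each done on 2 replicates of 4 conditions. The conditions were *sup45-ts* yeast after 30 min at 37°C, *SUP45* yeast after 30 min at 37°C, *sup45-ts* yeast after a mock shift at 25°C and *SUP45* yeast after a mock shift at 25°C. The *sup45-ts* strain (HFY1218) carries *sup45-2*, a temperature-sensitive allele of the gene for eRF1, the release factor that recognizes stop codons, and its reference is the isogenic wild-type strain HFY114. Both are haploid *MATa* strains of the W303 background, both were grown in YPD at 25°C before the shift, and both carry the W303 marker mutations in *CAN1*, *URA3*, *TRP1*, *LEU2*, *HIS3* and *ADE2*. Each genotype is thus a single strain, and a heat shift without inactivation of eRF1 is available only in *SUP45* yeast.

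RNA-Seq libraries held 107324550 to 153654244 expected counts. The tables of footprints, in which the replicates of a condition were combined by the authors, held 6463100 CDS and 3’-UTR footprints for *sup45-ts* yeast at 37°C and 16629631 to 21557248 for the other conditions. All 5 heat shock genes examined (*HSP104*, *HSP26*, *SSA4*, *HSP82* and *HSP42*) were higher at 37°C than at 25°C in both strains, and between the strains at 37°C 4 of them were higher in *sup45-ts* yeast, from a log2 fold change of 0.56 for *HSP82* to 3.83 for *HSP42*, while *HSP26* (−0.41) did not pass the test. The 4 marker genes of *MATa* lay between 28.6 and 1232 FPKM (fragments per kilobase, scaled to library size) over the libraries and the 3 that mark the other mating type between 0.15 and 20.7 FPKM, so that no marker was at 0. The markers of the other mating type summed to 23.1 and 24.3 FPKM in *sup45-ts* yeast at 37°C, against 4.56 to 5.63 FPKM in *SUP45* yeast at 37°C and 1.74 to 2.32 FPKM at 25°C, and the *MATa* markers summed to 738 to 948 FPKM in *sup45-ts* yeast at 37°C and 1574 to 1811 FPKM in *SUP45* yeast at 37°C, with 2058 to 2194 FPKM at 25°C. The part of these heat shock and marker levels in the results on *sup45-ts* yeast at 37°C was not tested. *SUP45* itself had 169 and 161 FPKM in *sup45-ts* yeast and 259 and 277 FPKM in *SUP45* yeast at 37°C, a log2 fold change of −0.69, and since *sup45-2* changes the protein, its mRNA level does not check the label.

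After 30 min at 37°C the mRNAs of the 40 genes took a much smaller share of the library than at 25°C. Their share of RNA-Seq counts was 1.22% and 1.21% in *sup45-ts* yeast at 37°C and 1.52% and 1.47% in *SUP45* yeast at 37°C. At 25°C it was 3.14% and 3.26% in *sup45-ts* yeast and 3.13% and 3.01% in *SUP45* yeast. The initiation factors made up 0.524% and 0.528% of counts and the synthetases 0.696% and 0.683% in *sup45-ts* yeast at 37°C, so that both families lay below their shares in *SUP45* yeast at 37°C, 0.652% and 0.649% for the initiation factors and 0.873% and 0.82% for the synthetases. The libraries come from bulk cultures, in which fewer cells expressing a gene and less of its RNA per cell cannot be told apart.

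The question of the comparison at 37°C is what differs between cells whose eRF1 is inactivated and wild-type cells after the same heat shift. Of the 40 genes, 25 were lower in *sup45-ts* yeast than in *SUP45* yeast (edgeR, Benjamini-Hochberg adjusted p under 0.05 over 6767 transcripts, of which 39.4% were lower), 5 were higher (39.5% of all transcripts were higher) and 10 did not pass the test. The median log2 fold change of the 40 genes was −0.46, against −0.01 for all transcripts tested. Among initiation factors 12 of 19 were lower and 3 higher, and among synthetases 13 of 21 were lower and 2 higher. The 5 that were higher in *sup45-ts* yeast were *DED1*, *SUI3*, *PRT1*, *WRS1* and *KRS1*.

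Of the 7 genes for factors that act on the cap and the leader, 5 were lower and *DED1* was higher in *sup45-ts* yeast at 37°C. *CDC33* (YOL139C), which encodes the cap-binding protein eIF4E, had 302 and 311 FPKM in *sup45-ts* yeast at 37°C and 469 and 509 FPKM in *SUP45* yeast at 37°C, with 830.2 and 897 FPKM in *sup45-ts* yeast and 928 and 977 FPKM in *SUP45* yeast at 25°C. The libraries of the strains did not overlap at 37°C, where the log2 fold change was −0.66 ± 0.08 (SE, adjusted p = 2.5e-05). *TIF1* (YKR059W) and *TIF2* (YJL138C) encode the same eIF4A protein, an RNA helicase. *TIF1* had 318 and 319 FPKM in *sup45-ts* yeast at 37°C and 524 and 477 FPKM in *SUP45* yeast at 37°C, with 1308 and 1293 FPKM in *sup45-ts* yeast and 1356 and 1282 FPKM in *SUP45* yeast at 25°C. *TIF2* had 148 and 154 FPKM in *sup45-ts* yeast at 37°C and 266 and 271 FPKM in *SUP45* yeast at 37°C, with 1002 and 1041 FPKM in *sup45-ts* yeast and 1182 and 1002 FPKM in *SUP45* yeast at 25°C. At 37°C both were lower in *sup45-ts* yeast, by a log2 fold change of −0.65 ± 0.10 (SE, adjusted p = 0.0002) for *TIF1* and −0.82 ± 0.10 (SE, adjusted p = 5.3e-05) for *TIF2*. Because the coding regions of the pair are nearly identical, the split of reads between them is uncertain, and their sum was 466 and 473 FPKM in *sup45-ts* yeast and 790.4 and 748 FPKM in *SUP45* yeast at 37°C.

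The genes for the scaffold eIF4G differed from each other. *TIF4631* (YGR162W), for the form eIF4G1, had 118 and 116 FPKM in *sup45-ts* yeast at 37°C and 141 and 143 FPKM in *SUP45* yeast at 37°C, with 406 and 445 FPKM in *sup45-ts* yeast and 379 and 359 FPKM in *SUP45* yeast at 25°C. Its log2 fold change between the strains at 37°C was −0.27 ± 0.08 (SE, adjusted p = 0.014), a call that was lost without *SUP45* replicate 1 at 37°C (adjusted p = 0.062). *TIF4632* (YGL049C), for the form eIF4G2, had 73 and 68.6 FPKM in *sup45-ts* yeast at 37°C and 68 and 65.2 FPKM in *SUP45* yeast at 37°C, with 73.5 and 77.1 FPKM in *sup45-ts* yeast and 70.3 and 60.1 FPKM in *SUP45* yeast at 25°C. It was the least abundant of the 7 genes in all 8 libraries, its temperatures overlapped in *SUP45* yeast, and it did not pass the test between the strains at 37°C, with a log2 fold change of 0.09 ± 0.09 (SE, adjusted p = 0.35). *TIF3* (YPR163C), for eIF4B, which helps eIF4A, was lower in *sup45-ts* yeast at 37°C, with a log2 fold change of −0.27 ± 0.08 (SE, adjusted p = 0.01) whose call was lost without the same library (adjusted p = 0.07). *DED1* (YOR204W; R64 chromosome XV, positions 722911 to 724725), for a DEAD-box helicase of scanning, had 242 and 256 FPKM in *sup45-ts* yeast at 37°C and 168 and 165 FPKM in *SUP45* yeast at 37°C, with 271 and 246 FPKM in *sup45-ts* yeast and 249.9 and 200.4 FPKM in *SUP45* yeast at 25°C. It stood 1.5-fold higher in *sup45-ts* yeast at 37°C, with a log2 fold change of 0.59 ± 0.12 (SE, adjusted p = 0.0015).

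**Figure D1:**
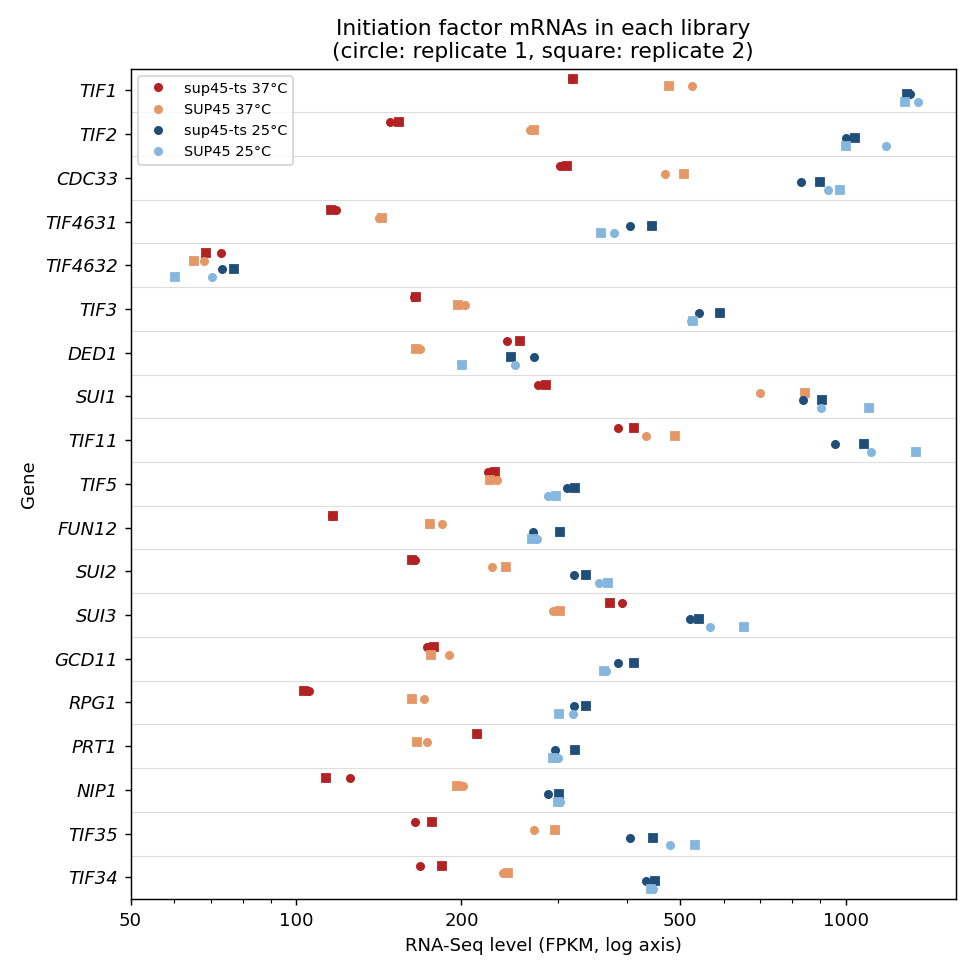
RNA-Seq level (FPKM, log axis) of the 19 initiation factor genes in each of the 8 libraries, with a color per condition, a circle for replicate 1 and a square for replicate 2. The points of both strains at 37°C lie left of those at 25°C for most genes, *SUI1* of *sup45-ts* yeast at 37°C (276 and 285 FPKM) stands apart from its other libraries, and the points of *TIF4632* lie close together.

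Of the 4 genes for factors of scanning and subunit joining, *SUI1* and *FUN12* were lower in *sup45-ts* yeast at 37°C. *SUI1* (YNL244C; R64 chromosome XIV, positions 187170 to 187496) encodes eIF1, which keeps scanning ribosomes from stopping at wrong start codons. It had 276 and 285 FPKM in *sup45-ts* yeast at 37°C and 699 and 843 FPKM in *SUP45* yeast at 37°C, with 835 and 908 FPKM in *sup45-ts* yeast and 900.5 and 1103 FPKM in *SUP45* yeast at 25°C. The level in *sup45-ts* yeast at 37°C was 2.73-fold lower than in *SUP45* yeast, the largest difference among the 40 genes, with a log2 fold change of −1.45 ± 0.10 (SE, adjusted p = 1.2e-06). *FUN12* (YAL035W), for the GTPase eIF5B, had 116 and 117 FPKM in *sup45-ts* yeast and 185 and 175 FPKM in *SUP45* yeast at 37°C and a log2 fold change of −0.62 ± 0.09 (SE, adjusted p = 0.00013). *TIF5* (YPR041W), for eIF5, the GTPase-activating protein of eIF2, had 224 and 229.9 FPKM in *sup45-ts* yeast at 37°C and 232 and 225 FPKM in *SUP45* yeast at 37°C, with 311 and 322 FPKM in *sup45-ts* yeast and 288 and 297 FPKM in *SUP45* yeast at 25°C, and the strains overlapped at 37°C, where the log2 fold change was −0.00 ± 0.07 (SE, adjusted p = 0.96). *TIF11* (YMR260C), for eIF1A, which acts with eIF1 in start codon recognition, did not pass the test either, at −0.20 ± 0.10 (SE, adjusted p = 0.1), but passed with DESeq2 (adjusted p = 0.031).

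The subunits of eIF2, the factor that brings the initiator tRNA, moved apart from each other. *SUI3* (YPL237W; R64 chromosome XVI, positions 100496 to 101353), for eIF2β, had 392 and 373 FPKM in *sup45-ts* yeast at 37°C and 293 and 302 FPKM in *SUP45* yeast at 37°C, with 522 and 540.4 FPKM in *sup45-ts* yeast and 565 and 652 FPKM in *SUP45* yeast at 25°C. *SUI2* (YJR007W), for eIF2α, the subunit that the kinase Gcn2 phosphorylates, had 165 and 163 FPKM in *sup45-ts* yeast at 37°C and 227 and 241 FPKM in *SUP45* yeast at 37°C, with 319.9 and 338 FPKM in *sup45-ts* yeast and 355 and 369.8 FPKM in *SUP45* yeast at 25°C. Thus at 37°C *SUI3* was higher in *sup45-ts* yeast, with a log2 fold change of 0.37 ± 0.08 (SE, adjusted p = 0.0019), and *SUI2* was lower, with −0.51 ± 0.06 (SE, adjusted p = 5e-05). *GCD11* (YER025W), for the GTP-binding subunit eIF2γ, was at 173 and 178 FPKM in *sup45-ts* yeast and 189.6 and 176 FPKM in *SUP45* yeast at 37°C, which overlapped.

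Among the 5 core subunits of eIF3, the largest initiation factor, 4 were lower and 1 was higher in *sup45-ts* yeast at 37°C. *PRT1* (YOR361C), for eIF3b, had 213 and 213 FPKM in *sup45-ts* yeast at 37°C and 173 and 166 FPKM in *SUP45* yeast at 37°C, with 296 and 322 FPKM in *sup45-ts* yeast and 300.1 and 293 FPKM in *SUP45* yeast at 25°C. *NIP1* (YMR309C), for eIF3c, had 126 and 113 FPKM in *sup45-ts* yeast at 37°C and 201 and 197 FPKM in *SUP45* yeast at 37°C, with 288 and 301 FPKM in *sup45-ts* yeast and 303 and 300.1 FPKM in *SUP45* yeast at 25°C. *PRT1* was higher in *sup45-ts* yeast at 37°C, with a log2 fold change of 0.34 ± 0.08 (SE, adjusted p = 0.0042), a call that was lost without *SUP45* replicate 2 at 37°C (adjusted p = 0.053). *NIP1* was lower, with −0.73 ± 0.08 (SE, adjusted p = 2.3e-05), and so were *TIF35* (YDR429C, eIF3g) with −0.72, *RPG1* (YBR079C, eIF3a) with −0.67 and *TIF34* (YMR146C, eIF3i) with −0.44.

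Of the 10 class I synthetase genes, 7 were lower and 1 was higher in *sup45-ts* yeast at 37°C. *GUS1* (YGL245W; R64 chromosome VII, positions 39023 to 41149), for glutamyl-tRNA synthetase, had 207 and 204 FPKM in *sup45-ts* yeast at 37°C and 441 and 403 FPKM in *SUP45* yeast at 37°C, with 707 and 731 FPKM in *sup45-ts* yeast and 703 and 649 FPKM in *SUP45* yeast at 25°C. Its level was 2.04-fold lower in *sup45-ts* yeast at 37°C, with a log2 fold change of −1.03 ± 0.10 (SE, adjusted p = 8.5e-06). *WRS1* (YOL097C), for tryptophanyl-tRNA synthetase, had 188 and 189 FPKM in *sup45-ts* yeast at 37°C and 154 and 147 FPKM in *SUP45* yeast at 37°C, with 289 and 299.6 FPKM in *sup45-ts* yeast and 285 and 282 FPKM in *SUP45* yeast at 25°C. It was the class I gene that was higher, with a log2 fold change of 0.33 ± 0.07 (SE, adjusted p = 0.0023). The others that were lower were *CRS1* (cysteine) with −0.75, *TYS1* (tyrosine) with −0.57, YDR341C (arginine) with −0.50, *GLN4* (glutamine) with −0.49, *ILS1* (isoleucine) with −0.49 and *CDC60* (leucine) with −0.28. The call of *CDC60* was lost without *SUP45* replicate 1 or either *sup45-ts* replicate at 37°C (adjusted p = 0.053 to 0.16). *MES1* (methionine) at 0.09 and *VAS1* (valine) at −0.12 did not pass the test.

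Of the 11 class II genes, 6 were lower and 1 was higher in *sup45-ts* yeast at 37°C. *KRS1* (YDR037W; R64 chromosome IV, positions 525440 to 527215), for lysyl-tRNA synthetase, had 427 and 409.9 FPKM in *sup45-ts* yeast at 37°C and 266 and 239 FPKM in *SUP45* yeast at 37°C, with 508 and 525 FPKM in *sup45-ts* yeast and 500.0 and 476 FPKM in *SUP45* yeast at 25°C. It was 1.66-fold higher in *sup45-ts* yeast at 37°C, with a log2 fold change of 0.73 ± 0.10 (SE, adjusted p = 7.2e-05), the highest of the 40 genes. Phenylalanyl-tRNA synthetase is the synthetase here whose subunits come from different genes, *FRS1* (YLR060W) for the β subunit and *FRS2* (YFL022C) for the α subunit. *FRS1* had 223 and 231 FPKM in *sup45-ts* yeast at 37°C and 226 and 216 FPKM in *SUP45* yeast at 37°C, with 314 and 325 FPKM in *sup45-ts* yeast and 307 and 296 FPKM in *SUP45* yeast at 25°C. *FRS2* had 67.4 and 69.2 FPKM in *sup45-ts* yeast at 37°C and 131 and 124 FPKM in *SUP45* yeast at 37°C, with 231 and 218 FPKM in *sup45-ts* yeast and 206 and 175 FPKM in *SUP45* yeast at 25°C. The strains overlapped at 37°C for *FRS1*, with a log2 fold change of 0.05 ± 0.08 (SE, adjusted p = 0.63), and stood well apart for *FRS2*, with a log2 fold change of −0.89 ± 0.10 (SE, adjusted p = 2.4e-05). The other class II genes that were lower were *HTS1* (histidine) with −0.88, *GRS1* (glycine) with −0.81, YHR020W (proline) with −0.75, *DED81* (asparagine) with −0.65 and *THS1* (threonine) with −0.44. *ALA1* (alanine) at −0.20, *SES1* (serine) at −0.05 and *DPS1* (aspartate) at 0.01 did not pass the test. *ALA1* ranged from −0.30 to −0.13 with a library left out, and it was called lower without *SUP45* replicate 1 at 25°C (adjusted p = 0.049) or *SUP45* replicate 2 at 37°C (adjusted p = 0.034), with DESeq2 (adjusted p = 0.0086), with its size factors (adjusted p = 0.045) and with library totals alone (adjusted p = 0.039). *HTS1* and *GRS1* each encode the mitochondrial form of their synthetase as well, from another start site, as do *VAS1* and *ALA1*.

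**Figure D2:**
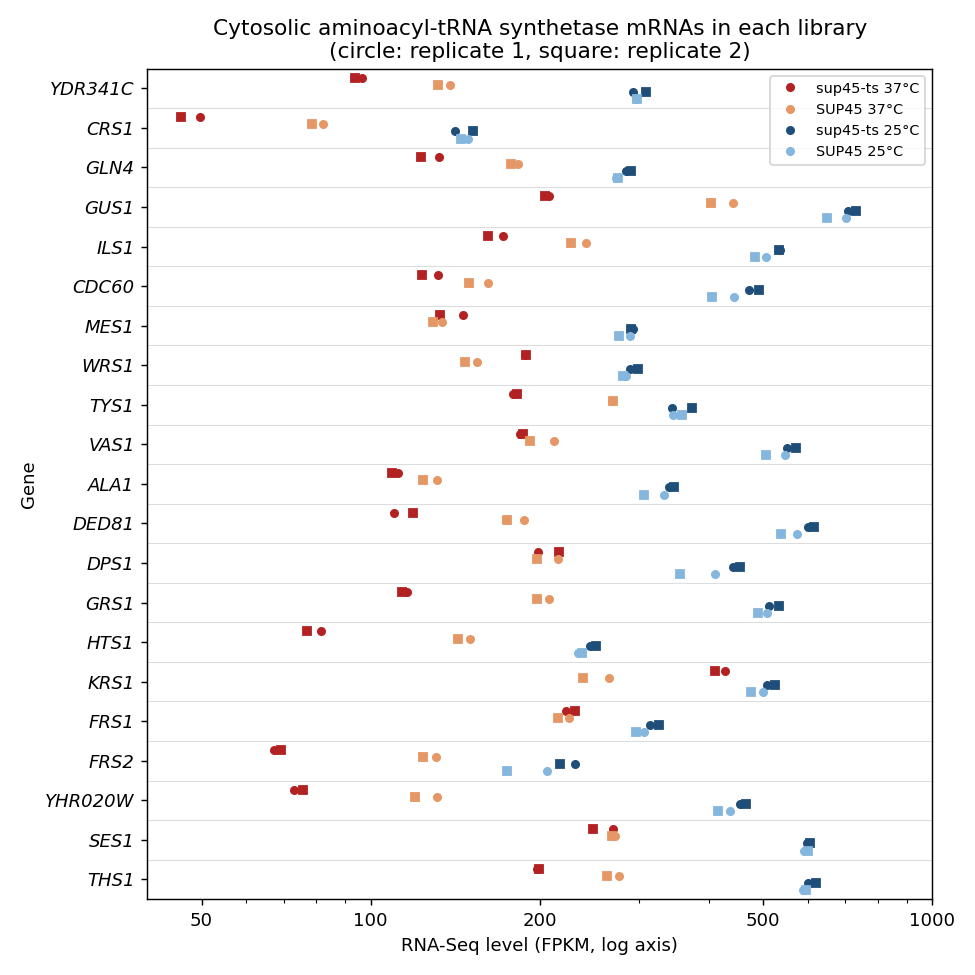
RNA-Seq level (FPKM, log axis) of the 21 cytosolic aminoacyl-tRNA synthetase genes in each of the 8 libraries, with a color per condition, a circle for replicate 1 and a square for replicate 2. Levels at 37°C lie left of those at 25°C for every gene, and *KRS1* in *sup45-ts* yeast at 37°C (427 and 409.9 FPKM) lies nearest to its levels at 25°C.

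The effect of the shift was asked in each strain on its own. In *sup45-ts* yeast all 40 genes were lower at 37°C than at 25°C (edgeR, 42.0% of all 6767 transcripts were lower), with a median log2 fold change of −2.06 and a range of −3.39 to −0.69. In *SUP45* yeast all 40 were lower as well (37.4% of all transcripts were lower), with a median of −1.48 and a range of −2.57 to −0.52. The median of all transcripts was 0.03 in *sup45-ts* yeast and 0.01 in *SUP45* yeast, and 8.16% of transcripts in *sup45-ts* yeast and 8.14% in *SUP45* yeast lay below the median of the 40 genes.

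These changes are relative to the median transcript, since the scaling between 37°C and 25°C differed from library totals: TMM factors were 1.2 to 1.26 at 37°C and 0.777 to 0.849 at 25°C. With library totals alone the median of all transcripts was 0.66 in *sup45-ts* yeast and 0.56 in *SUP45* yeast, and 71.3% of calls in *sup45-ts* yeast and 78.0% in *SUP45* yeast were then higher, in place of 51.5% in *sup45-ts* yeast and 50.7% in *SUP45* yeast. The genes here were still lower, 38 of 40 in *sup45-ts* yeast and 39 of 40 in *SUP45* yeast. The exceptions were *TIF4632* in both strains, with a log2 fold change of −0.09 in *sup45-ts* yeast and 0.03 in *SUP45* yeast, and *DED1* in *sup45-ts* yeast with −0.06. Their FPKM lay close together at both temperatures. *TIF4632* had 73 and 68.6 FPKM at 37°C and 73.5 and 77.1 FPKM at 25°C in *sup45-ts* yeast, and *DED1* had 242 and 256 FPKM at 37°C and 271 and 246 FPKM at 25°C in *sup45-ts* yeast.

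The genes that fell most with the shift came in the same order in both strains, namely *TIF2*, YHR020W and *DED81*. YHR020W (R64 chromosome VIII, positions 143996 to 146062), for prolyl-tRNA synthetase, had 73.2 and 75.9 FPKM in *sup45-ts* yeast at 37°C and 131 and 119.8 FPKM in *SUP45* yeast at 37°C, with 455 and 466 FPKM in *sup45-ts* yeast and 436 and 416 FPKM in *SUP45* yeast at 25°C. *DED81* (YHR019C; R64 chromosome VIII, positions 141894 to 143558), for asparaginyl-tRNA synthetase, had 109.9 and 119 FPKM in *sup45-ts* yeast at 37°C and 187 and 175 FPKM in *SUP45* yeast at 37°C, with 599 and 615 FPKM in *sup45-ts* yeast and 573 and 537 FPKM in *SUP45* yeast at 25°C. The log2 fold change of the shift for YHR020W was −3.26 ± 0.10 (SE, adjusted p = 1.9e-09) in *sup45-ts* yeast and −2.31 ± 0.10 (SE, adjusted p = 2.8e-08) in *SUP45* yeast, and for *DED81* it was −3.04 ± 0.10 (SE, adjusted p = 3.3e-09) in *sup45-ts* yeast and −2.16 ± 0.10 (SE, adjusted p = 5.1e-08) in *SUP45* yeast. This pair of genes lies side by side on chromosome VIII on opposite strands, with both start codons toward the stretch between them. The smallest changes were those of *DED1* (−0.69), *TIF4632* (−0.73) and *KRS1* (−0.94) in *sup45-ts* yeast, and of *TIF4632* (−0.52), *TIF5* (−0.91) and *SUI1* (−0.93) in *SUP45* yeast.

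Whether the shift acted differently in the strains was tested with an interaction term. For 26 of the 40 genes the log2 fold change at 37°C against 25°C was lower in *sup45-ts* yeast than in *SUP45* yeast (35.7% of all transcripts) and for 2 it was higher (34.5% of all transcripts). The median difference was −0.57, against −0.02 for all transcripts. The lowest were *SUI1* with −1.34 ± 0.15 (SE, adjusted p = 3.5e-05), *FRS2* with −1.22 ± 0.14 (SE, adjusted p = 5e-05) and *GUS1* with −1.21 ± 0.14 (SE, adjusted p = 5e-05). The genes with a higher log2 fold change in *sup45-ts* yeast were *KRS1* with 0.56 ± 0.14 (SE, adjusted p = 0.0049) and *SUI3* with 0.47 ± 0.11 (SE, adjusted p = 0.0042). *DED1* was next at 0.29 ± 0.17 (SE, adjusted p = 0.16), which did not pass the test. Its value ranged from 0.11 to 0.45 with a library left out, and it passed without *SUP45* replicate 2 at 25°C (adjusted p = 0.02) and with library totals alone (0.38, adjusted p = 0.04). For *SUI1* the change in *sup45-ts* yeast was −2.27 and its change in *SUP45* yeast was −0.93.

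**Figure D3:**
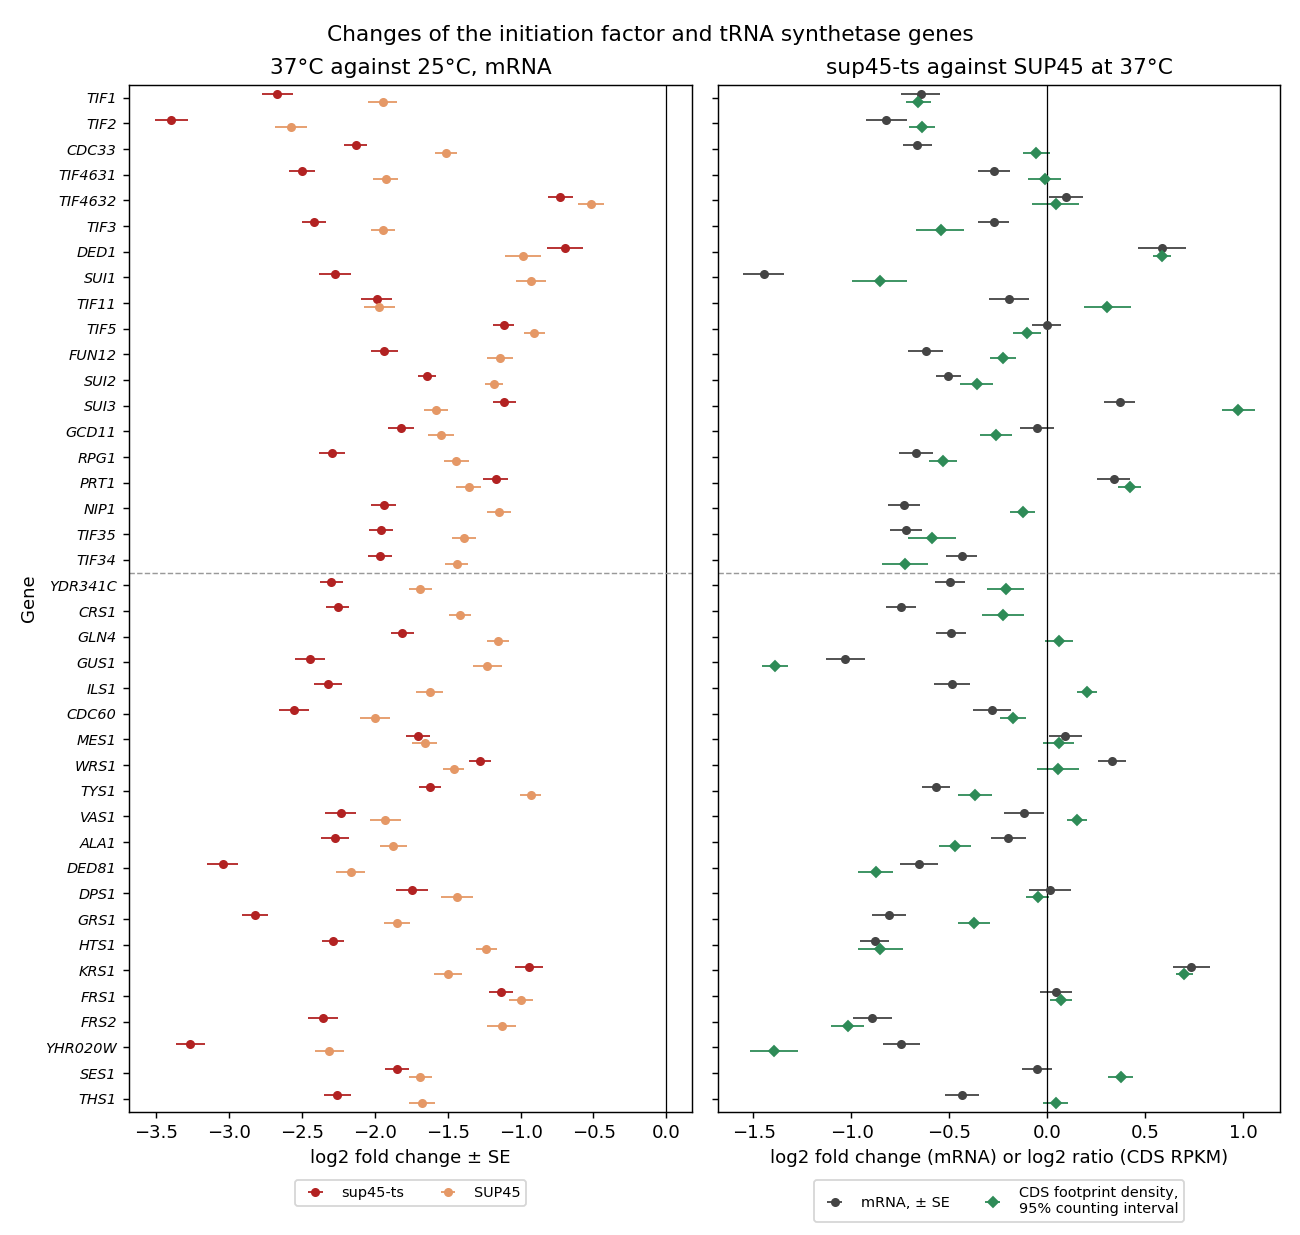
Left, log2 fold change of mRNA at 37°C against 25°C in *sup45-ts* and *SUP45* yeast for each of the 40 genes, with bars for the SE of the edgeR fit. Right, *sup45-ts* against *SUP45* yeast at 37°C as mRNA log2 fold change (circles, ± SE) and as log2 ratio of CDS footprint density (diamonds, bars for the 95% counting interval), where *KRS1*, *DED1* and *SUI3* lie right of 0 in both measures and *GUS1*, *FRS2*, YHR020W and *SUI1* lie far left. The dashed line separates initiation factors from synthetases.

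At 25°C none of the 40 genes passed the test between the strains (edgeR, 0.133% of all transcripts passed). Before adjustment 11 of the 40 genes were under 0.05 with edgeR, as were 877 of all 6767 transcripts. DESeq2 called *TIF4631*, at 0.30 on the log2 scale. The transcripts counted next are those of the edgeR test. Of the 9 transcripts called, 88.9% were higher in *sup45-ts* yeast, a share that was 36.4% with library totals alone and 53.3% with DESeq2. Without *SUP45* replicate 1 at 25°C, edgeR called *FRS2* (0.47) and *TIF4632* (0.43). The estimates lay between −0.18 for *TIF11* and 0.33 for *FRS2*, and those of all 21 synthetases were above 0, from 0.09 to 0.33. With library totals alone, where the median of all transcripts was −0.09, 20 of the 21 were above 0 and *CRS1* was not, and the median of the 40 genes was 0.07 in place of 0.17. The highest were *FRS2*, with 231 and 218 FPKM in *sup45-ts* yeast and 206 and 175 FPKM in *SUP45* yeast, *DPS1* (aspartyl-tRNA synthetase), with 441 and 454 FPKM in *sup45-ts* yeast and 409.7 and 355 FPKM in *SUP45* yeast, and *TIF4632*, and the lowest were *TIF11*, with 957 and 1079.7 FPKM in *sup45-ts* yeast and 1114 and 1345 FPKM in *SUP45* yeast, *TIF35*, with 406 and 446 FPKM in *sup45-ts* yeast and 479.9 and 533 FPKM in *SUP45* yeast, and *SUI1*.

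The density of footprints in the CDS follows both the level of an mRNA and the number of ribosomes on it. The paper reports stalled and queued ribosomes at start and stop codons of the mutant. For this reason it left out the first 15 and last 33 nt of the CDS. Stalling in the rest of the CDS was not tested here. Each condition is a single value here, in RPKM (footprints per kilobase, scaled to all footprints), so that differences carry a counting interval and no test, and such intervals cover counting error only. The 40 genes held 1.52% of CDS footprints in *sup45-ts* yeast at 37°C and 1.45% in *SUP45* yeast at 37°C, and 3.57% in *sup45-ts* yeast and 3.29% in *SUP45* yeast at 25°C. Each gene had at least 503 CDS footprints in every condition, the lowest number being that of *SUI1* in *sup45-ts* yeast at 37°C.

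In the shift from 25°C to 37°C, 36 of the 40 genes in *sup45-ts* yeast lay more than 2-fold below the median change in CDS footprint density (25.9% of 4948 transcripts did), and 36 of 40 in *SUP45* yeast (17.1% of transcripts). The median log2 ratio of the 40 genes was −1.38 in *sup45-ts* yeast and −1.05 in *SUP45* yeast, against 0.53 in *sup45-ts* yeast and 0.52 in *SUP45* yeast for all transcripts. The genes not past this limit were *SUI3*, *DED1*, *TIF4632* and *KRS1* in *sup45-ts* yeast and *TIF4632*, *TIF5*, *SUI1* and *DED1* in *SUP45* yeast.

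Between the strains at 37°C, 2 of 40 genes lay more than 2-fold below the median change in CDS footprint density (13.9% of transcripts) and 1 lay more than 2-fold above it (16.5% of transcripts). The 2 below were YHR020W, at 47.3 RPKM (616 footprints) in *sup45-ts* yeast and 124 RPKM (4163 footprints) in *SUP45* yeast, and *GUS1*, at 164 RPKM (2196 footprints) in *sup45-ts* yeast and 429 RPKM (14801 footprints) in *SUP45* yeast. Their log2 ratios were −1.39 (95% interval −1.52 to −1.27) for YHR020W and −1.39 (95% interval −1.45 to −1.32) for *GUS1*. *SUI3* lay above, with 382 RPKM (1990 footprints) in *sup45-ts* yeast and 194 RPKM (2607 footprints) in *SUP45* yeast and a log2 ratio of 0.97 (95% interval 0.89 to 1.06). *KRS1* had 629 RPKM (7012 footprints) in *sup45-ts* yeast and 388 RPKM (11117 footprints) in *SUP45* yeast, a log2 ratio of 0.70 (95% interval 0.66 to 0.74), close to its mRNA log2 fold change of 0.73. *SUI1*, the gene with the largest mRNA difference, had 282 RPKM (503 footprints) in *sup45-ts* yeast and 510.3 RPKM (2342 footprints) in *SUP45* yeast, a log2 ratio of −0.86 (95% interval −1.0 to −0.72) that was smaller in size than its mRNA log2 fold change of −1.45.

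Translation efficiency, the CDS footprint density divided by the mRNA level, was then compared. Its log2 difference between *sup45-ts* and *SUP45* yeast at 37°C had a median of 0.13 over the 40 genes and 0.07 over all transcripts, and all 40 genes lay between the 10th and the 90th percentile of transcripts (−0.64 to 0.76). The highest differences were those of *ILS1* (isoleucyl-tRNA synthetase) at 0.70, *CDC33* at 0.62 and *SUI3* at 0.61. The lowest were YHR020W at −0.64, *GUS1* at −0.35 and *TIF34* at −0.28, which had 168 and 185 FPKM in *sup45-ts* yeast and 238 and 243 FPKM in *SUP45* yeast. For both *ILS1* and *CDC33* the mRNA was lower in *sup45-ts* yeast at 37°C, while the density was higher for *ILS1* and nearly equal for *CDC33*. *ILS1* had 172 and 162 FPKM in *sup45-ts* yeast and 242 and 228 FPKM in *SUP45* yeast, and its density was 215 RPKM (4408 footprints) in *sup45-ts* yeast and 187 RPKM (9867 footprints) in *SUP45* yeast. The density of *CDC33* was 608 RPKM (2324 footprints) in *sup45-ts* yeast and 633 RPKM (6225 footprints) in *SUP45* yeast, a log2 ratio of −0.06 (95% interval −0.13 to 0.01). For YHR020W and *GUS1* both measures were lower, the density more so.

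As levels, translation efficiencies ranged over the 40 genes from 0.515 to 2.16 in *sup45-ts* yeast at 37°C, 0.553 to 2.22 in *SUP45* yeast at 37°C, 0.584 to 2.4 in *sup45-ts* yeast at 25°C and 0.502 to 2.35 in *SUP45* yeast at 25°C. Their median was above that of all transcripts in each condition, at 1.08 against 0.874 in *sup45-ts* yeast and 0.924 against 0.823 in *SUP45* yeast at 37°C, and 1.12 against 0.851 in *sup45-ts* yeast and 1.05 against 0.815 in *SUP45* yeast at 25°C. In the same order of conditions, *DED1* (2.16, 2.15, 2.4 and 2.23) and *FRS2* (2.05, 2.22, 2.13 and 2.35) were high in all 4 conditions, and *TIF3* (0.515, 0.618, 0.71 and 0.689) and *TIF11* (0.789, 0.553, 0.584 and 0.502) were low. Between 37°C and 25°C in *SUP45* yeast the log2 efficiency of the 40 genes had a median difference of −0.12, against 0.01 for all transcripts. *TIF1* and *TIF2* had nearly the same number of CDS footprints in each condition (2410 and 2371 in *sup45-ts* yeast at 37°C, 37965 and 37635 in *SUP45* yeast at 25°C), although their FPKM ratio was 2.11 in *sup45-ts* yeast at 37°C and 1.21 in *SUP45* yeast at 25°C, and how footprints shared by the pair were assigned was not tested. Without *TIF2* the share of CDS footprints held by the genes was 1.48% in *sup45-ts* yeast and 1.39% in *SUP45* yeast at 37°C, and 3.37% in *sup45-ts* yeast and 3.08% in *SUP45* yeast at 25°C.

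The subunits of a complex are needed in fixed proportion, and the CDS footprint densities of eIF3 and phenylalanyl-tRNA synthetase subunits lay close together in all conditions but *sup45-ts* yeast at 37°C. For the 5 core subunits of eIF3 the highest density was 2.31 times the lowest in *sup45-ts* yeast at 37°C, against 1.25 times in *SUP45* yeast at 37°C, and 1.10 times in both strains at 25°C. In *sup45-ts* yeast at 37°C these densities were 263 RPKM for *PRT1*, 176 RPKM for *NIP1*, 137 RPKM for *TIF35* and 114 RPKM for both *TIF34* and *RPG1*. In *SUP45* yeast at 37°C all 5 lay between 165 and 206 RPKM. At the mRNA level the highest of the 5 was 2.02 and 2.06 times the lowest in the libraries of *sup45-ts* yeast and 1.58 and 1.82 times in those of *SUP45* yeast at 37°C.

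The *FRS1* to *FRS2* ratio of CDS footprint density was 2.21 (95% interval 2.07 to 2.35) in *sup45-ts* yeast at 37°C and 1.04 (1.00 to 1.07) in *SUP45* yeast at 37°C, and at 25°C it was 1.00 (0.982 to 1.03) in *sup45-ts* yeast and 0.998 (0.973 to 1.02) in *SUP45* yeast. The intervals at 37°C did not overlap, but the densities are single values. The mRNA ratio was 3.3 and 3.34 in *sup45-ts* yeast and 1.72 and 1.74 in *SUP45* yeast at 37°C, and 1.36 and 1.5 in *sup45-ts* yeast and 1.49 and 1.69 in *SUP45* yeast at 25°C. The ratio in both libraries of *sup45-ts* yeast at 37°C thus lay above that of every other library. For eIF2 the highest subunit density was 2.33 times the lowest in *sup45-ts* yeast at 37°C and 1.8 times in *SUP45* yeast at 37°C, and 1.48 times in *sup45-ts* yeast and 1.45 times in *SUP45* yeast at 25°C.

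**Figure D4:**
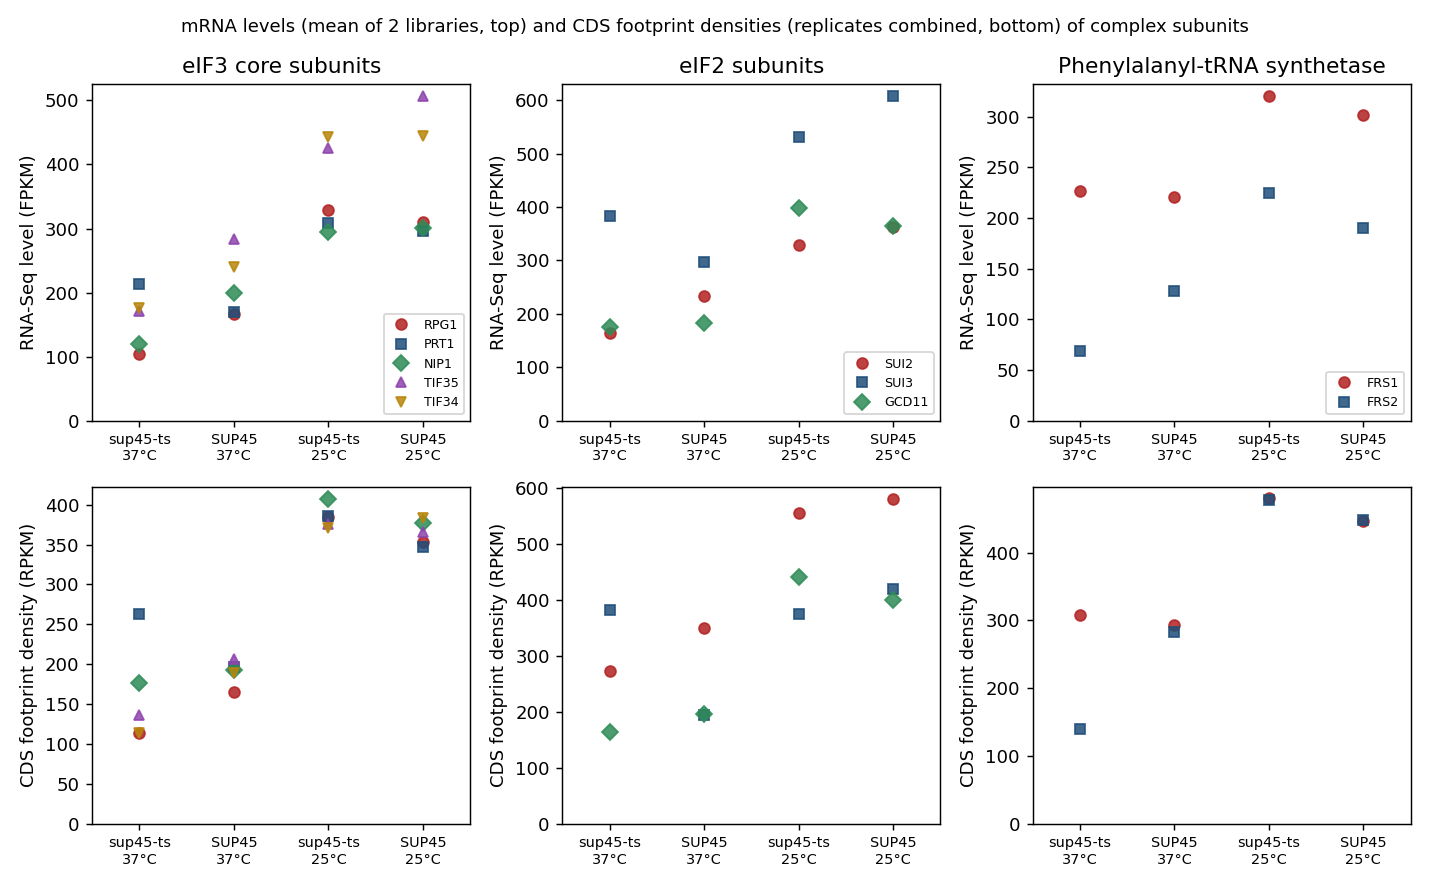
Levels of the subunits of eIF3, eIF2 and phenylalanyl-tRNA synthetase in the 4 conditions, as RNA-Seq level (FPKM, mean of 2 libraries, top) and CDS footprint density (RPKM, replicates combined, bottom), with axes from 0. The densities of the eIF3 subunits and of *FRS1* and *FRS2* nearly coincide in *SUP45* yeast and in *sup45-ts* yeast at 25°C and spread in *sup45-ts* yeast at 37°C (*FRS1* 308 RPKM, *FRS2* 139.7 RPKM).

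Ribosomes that read through a stop codon enter the 3’-UTR. Footprints between the normal stop codon and the next in-frame stop codon, a stretch called the extension, serve as the measure of readthrough. The paper states that ribosomes also stalled at this next stop codon and that such footprints were kept because many extensions are short. It cautions that readthrough may be somewhat overestimated for this reason, and that frameshifting or reinitiation may add out-of-frame footprints. The 40 genes had 7.77% of their footprints (7223) in the 3’-UTR in *sup45-ts* yeast at 37°C and 0.0104% (25) in *SUP45* yeast at 37°C, and 0.0568% (437) in *sup45-ts* yeast and 0.0202% (115) in *SUP45* yeast at 25°C. For all transcripts the share was 12.6% in *sup45-ts* yeast and 0.0613% in *SUP45* yeast at 37°C, and 0.134% in *sup45-ts* yeast and 0.0953% in *SUP45* yeast at 25°C, and the 95% Clopper-Pearson interval of the 40 genes in *sup45-ts* yeast at 37°C was 7.6% to 7.94%. That interval covers counting error only and not the spread between genes. *TIF5* (1186), *DED1* (974) and *PRT1* (797) had the most of the 7223 footprints. The sum includes genes with no mapped 3’-UTR end.

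In *sup45-ts* yeast at 37°C all 40 genes had extension footprints, 3704 in all, and 32 had at least 10, against 91.6% and 56.5% of the 4948 transcripts. In *SUP45* yeast at 37°C 11 genes had any, with 20 footprints in all, against 17.7% of transcripts. At 25°C 34 genes in *sup45-ts* yeast had 397 (44.0% of transcripts had any) and 23 genes in *SUP45* yeast had 96 (24.8% of transcripts had any). Readthrough efficiency, the log2 ratio of extension to CDS footprint density, for which the study took footprints in the reading frame of the CDS only, had a median of 0.26 over the 40 genes in *sup45-ts* yeast at 37°C, against 0.55 for the transcripts with at least 32 CDS footprints in all conditions. The 0.55 leaves out 418 of the 4948 transcripts, which had no extension footprints. For the 32 genes whose 3’-UTR is annotated and free of a same-strand neighbour beyond 18 bp, the median was 0.05. No median of all transcripts under these same limits is available to set beside it. In the other conditions the genes with extension footprints had medians of −6.59 (*SUP45* at 37°C), −5.82 (*sup45-ts* at 25°C) and −6.12 (*SUP45* at 25°C), against −6.18, −4.57 and −5.50 for all these transcripts with extension footprints. Genes without extension footprints are left out of these medians, and the lowest efficiency a gene can then show falls as its CDS count grows. The 40 genes had at least 1740 CDS footprints in these conditions and at least 503 in *sup45-ts* yeast at 37°C, and the transcripts at least 32. The medians of all 4 conditions therefore do not compare readthrough between the sets. Whether a gene shows any extension footprint, or at least 10, also depends on how many footprints it has. The counts of genes with extension footprints therefore do not compare readthrough between the sets either.

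In *sup45-ts* yeast at 37°C the genes spread widely. *PRT1* had the highest efficiency, 5.0 from 491 footprints in an extension of 9 nt, but its 3’-UTR is a default length that overlaps a neighbour by 28 bp. YDR341C, for arginyl-tRNA synthetase, had 3.82 from 29 footprints in an extension of only 3 nt. *TIF5* had the most extension footprints, 564 of 1186 in its 3’-UTR, and a readthrough efficiency of 3.32. *SES1* (seryl-tRNA synthetase) came next with 2.83 from 89 footprints in an extension of 6 nt. At the low end *ILS1* had −4.38 from 1 footprint and YHR020W −3.27 from 2, numbers too small to rank. *MES1* was the lowest of the genes with at least 10 footprints, at −2.33 from 13. *DED1*, whose 3’-UTR is the longest of the 40 at 721 nt, had 974 footprints there, of which 52 (5.34%) lay in the extension.

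**Figure D5:**
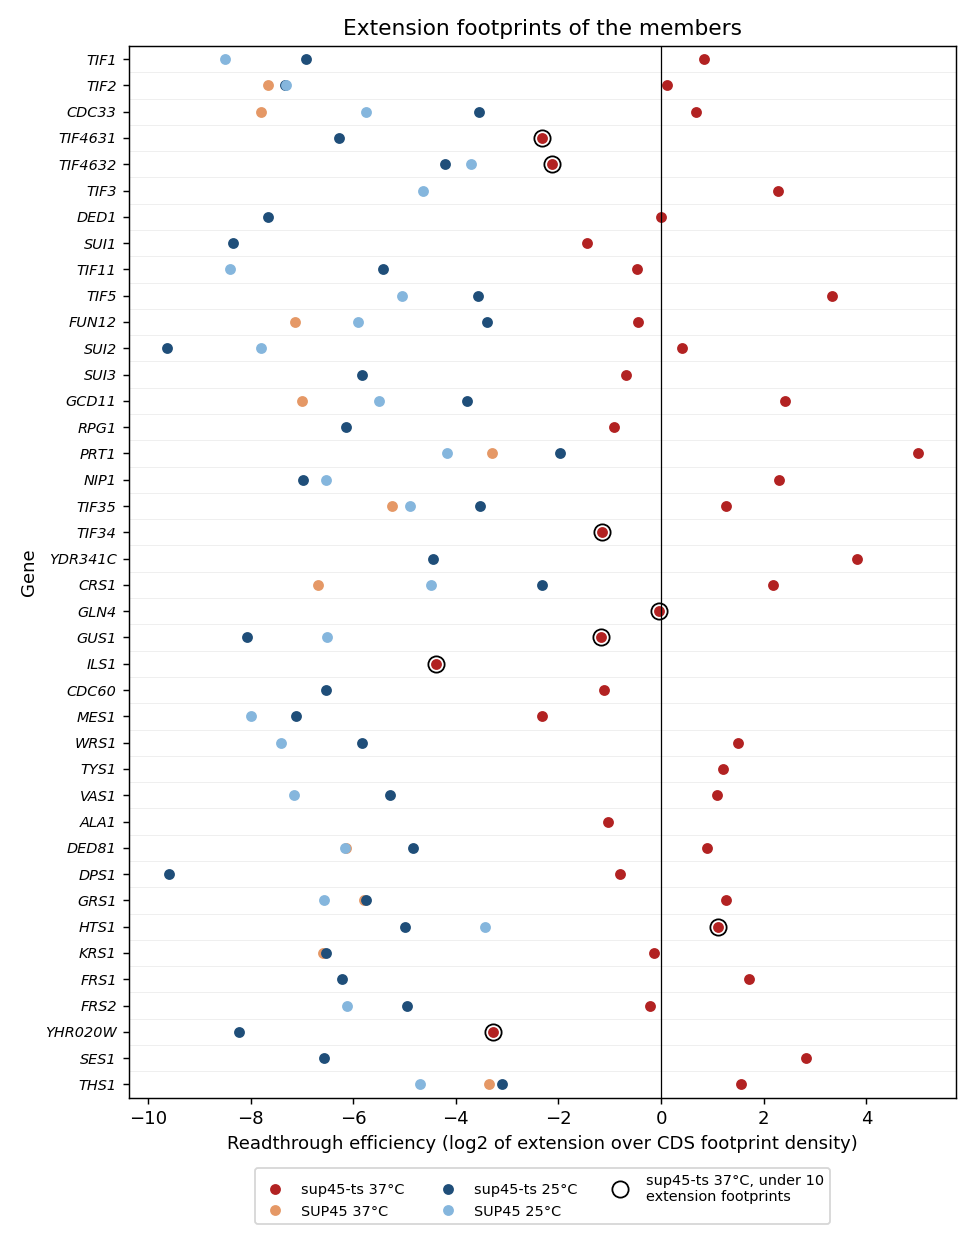
Readthrough efficiency (log2 of extension over CDS footprint density, replicates combined) of the 40 genes, with a color per condition and no point where a gene had no extension footprint. Black rings mark the 8 genes with fewer than 10 extension footprints in *sup45-ts* yeast at 37°C, and values in that condition lie between −4.38 and 5.0, to the right of every other point of the same gene.

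Other genes of translation were counted from the same fits. Between the strains at 37°C 39.4% of all transcripts were lower and 39.5% higher in *sup45-ts* yeast, the shares to set beside each list below. With the shift 42.0% of all transcripts fell in *sup45-ts* yeast and 37.4% in *SUP45* yeast. Of 10 elongation and termination factor genes, all 10 fell at 37°C relative to the median transcript in both strains, although the mean FPKM of *EFB1* in *sup45-ts* yeast and of *CAM1* in *SUP45* yeast was higher at 37°C, and between the strains at 37°C 5 were lower and 1 higher in *sup45-ts* yeast. The extremes there were *TEF2* (elongation factor eEF1A) at −0.75, which shares its protein and most of its coding sequence with *TEF1*, and *EFB1* (its exchange factor) at 0.58. Of 18 further initiation and regulatory genes, 14 fell and 2 rose with the shift in *sup45-ts* yeast and 15 fell and 1 rose in *SUP45* yeast relative to the median transcript, although mean FPKM was higher at 37°C for 7 of them in *sup45-ts* yeast and 6 in *SUP45* yeast. Between the strains at 37°C 8 of these were lower and 5 higher in *sup45-ts* yeast, from *GCD1* (a subunit of eIF2B, the exchange factor of eIF2) at −1.18 to *ANB1* (the eIF5A form of low oxygen, a close paralog of *HYP2*) at 2.51. Of the 14 mitochondrial synthetase genes, 9 rose and 2 fell with the shift in *sup45-ts* yeast (median 0.52), where 44.6% of all transcripts rose, and 11 rose and 0 fell in *SUP45* yeast (median 0.45), where 38.4% of all transcripts rose. In mean FPKM all 14 were higher at 37°C in both strains. FPKM is scaled to library size, and a rise was common on that scale. With library totals alone edgeR called 4218 transcripts higher in *sup45-ts* yeast and 4307 in *SUP45* yeast, of 6767. Between the strains at 37°C 6 were higher and 4 lower, from *MSY1* at −0.43 to *MST1* at 0.50, for mitochondrial tyrosyl- and threonyl-tRNA synthetases. *ARC1*, whose product binds the glutamyl- and methionyl-tRNA synthetases, fell with the shift by 1.53 in *sup45-ts* yeast and by 0.87 in *SUP45* yeast on the log2 scale, and *GRS2*, a second glycyl-tRNA synthetase gene, was higher by 1.13 in *sup45-ts* yeast and 1.23 in *SUP45* yeast.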

How the data were processed

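For RNA-Seq, the authors ran RSEM with Bowtie on a transcriptome of 6952 transcripts (R64). The expected counts and FPKM that RSEM estimates per library were deposited by the authors. For ribosome profiling, the authors trimmed reads with cutadapt, removed non-coding RNA and PCR duplicates, assigned P-sites, combined replicates, took only footprints in the CDS reading frame for readthrough efficiency and deposited tables of footprint counts, RPKM scaled to CDS plus 3’-UTR footprints, and readthrough efficiency as a log2 ratio. The first 15 and last 33 nt of the CDS are left out of the counts. The TPM columns and the authors' other columns were not used, and 0 columns belonged to other samples. Library totals were 107324550 to 153654244 expected counts.

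Expected counts were rounded, and edgeR's quasi-likelihood test was run on them (TMM, filterByExpr, all 8 libraries in 1 fit, a coefficient per group, Benjamini-Hochberg adjustment over 6767 transcripts, threshold 0.05). In a simulation of the *sup45-ts* to *SUP45* comparison at 37°C (6737 transcripts, 200 changed), 91% of 2-fold and 80% of 1.5-fold changes were recovered and 5% of calls were false. All groups shared the same mean profile there apart from the 200 changes. In the data 2664 transcripts were called lower and 2674 higher, so that these rates check the test and do not describe the real comparison. Translation efficiency is log2 of CDS RPKM over mean FPKM, set beside 4948 transcripts with at least 32 CDS footprints and an FPKM of at least 1 in all 4 conditions. Footprint ratios carry exact binomial and footprint counts exact Poisson intervals at 95%, which cover counting error only.

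Expected counts of the ribosome profiling libraries were not used: the 40 genes sum to 2.72 to 254 counts there, 0.000344% to 0.0293% of a library, against 1.45% to 3.57% of the CDS footprints, and FPKM correlated negatively with CDS RPKM over transcripts (Spearman −0.30 to −0.24). Why they differ is not stated.

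The members and gene lists were chosen with earlier results of these data known. All 40 genes were counted. Values per library were given for the eIF4A, eIF4E and eIF4G genes, for the highest and lowest gene of each other subgroup between the strains at 37°C, for the 3 highest and 3 lowest of each other mRNA comparison and of the difference in translation efficiency at 37°C, and for both phenylalanyl-tRNA synthetase genes. From each other list the highest and lowest gene at 37°C were named, with *SUP45* and the heat shock genes. Other genes named in the text were chosen after their values were seen. Nothing in the labels says that replicates come from separate cultures, so p-values measure the spread between these libraries. Pairing by replicate number was not used in the main fit. Deviations of replicate 1 from its group mean correlated at −0.17 to 0.22 between groups, which cannot settle whether the replicates are paired. Symbols and coordinates are from the RefSeq table of assembly R64, in which all 40 were matched. Alternatives were DESeq2, DESeq2 size factors, library totals alone, no filter on low counts, only the libraries compared, a replicate block, each replicate left out, and other scalings and minimums for translation efficiency. Tools were R 4.3.3, edgeR 4.0.16, DESeq2 1.42.0, Python 3.11.15, numpy 2.4.6, pandas 2.3.3, scipy 1.17.1 and matplotlib 3.10.9.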

Additional observations from a re-analysis of the deposited data

Results flagged for a closer look

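The effect of the shift to 37°C differed between *sup45-ts* and *SUP45* cells for 28 of the 40 genes by the interaction term of the edgeR fit (adjusted p under 0.05). Of these, 26 were lower and 2 higher, against 35.7% lower and 34.5% higher of all 6767 transcripts. The count in either direction is thus near the share of all transcripts, and only its direction differs. The values below are the log2 fold change in *sup45-ts* cells minus that in *SUP45* cells, and the contrasts share no library. Among cap and leader factors it was −0.72 for *TIF1*, −0.82 for *TIF2*, −0.62 for *CDC33*, −0.57 for *TIF4631* and −0.48 for *TIF3*. Among scanning and joining factors it was −1.34 for *SUI1* and −0.79 for *FUN12*. The eIF2 subunits differed in sign, with −0.46 for *SUI2* and 0.47 for *SUI3*. The eIF3 subunits were at −0.85 for *RPG1*, −0.79 for *NIP1*, −0.57 for *TIF35* and −0.52 for *TIF34*. Class I synthetases were at −0.61 for YDR341C, −0.84 for *CRS1*, −0.65 for *GLN4*, −1.21 for *GUS1*, −0.69 for *ILS1*, −0.56 for *CDC60* and −0.69 for *TYS1*. Class II synthetases were at −0.40 for *ALA1*, −0.88 for *DED81*, −0.97 for *GRS1*, −1.05 for *HTS1*, −1.22 for *FRS2*, −0.95 for YHR020W and −0.58 for *THS1*, and 0.56 for *KRS1* was the exception in sign. The genes for which no difference passed the test include *FRS1* and *PRT1*, partners of *FRS2* and of the other eIF3 subunits.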

How the results depend on the processing

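Calls at 37°C against 25°C covered all 40 genes under every alternative in both strains except library totals alone, and with each replicate left out (40 to 40 genes). Between the strains at 37°C 5 genes were called higher and 25 lower (39.5% and 39.4% of all transcripts), and 5 and 27 with DESeq2. For the interaction 2 were called higher and 26 lower (34.5% and 35.7% of all transcripts), and 2 and 30 with DESeq2. Taken in either direction, such counts lie near the shares of all transcripts. With a replicate left out some calls of both comparisons were lost and others gained. At 25°C the 0 calls of edgeR became 1 with DESeq2 and 0 to 2 with a replicate left out, 2 of them without *SUP45* replicate 1. Whether replicate numbers pair the samples could not be settled. A replicate block in edgeR gave 31 genes between the strains at 37°C, with *TIF11* (adjusted p = 0.029) added. It gave 0 at 25°C, 40 in each strain with the shift and 28 for the interaction.

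Signs changed for values near 0, all but *TIF4632* not called. Between the strains at 37°C *DPS1* was −0.0173 with DESeq2 and −0.0159 with its size factors, and *TIF5* 0.0127 with only the 4 libraries compared. With a replicate left out *DPS1* ranged from −0.10 to 0.11, *TIF5* from −0.0822 to 0.0469, *GCD11* from −0.16 to 0.0353 and *FRS1* from −0.0438 to 0.11. With library totals alone *TIF4632* was 0.0302 with the shift in *SUP45* yeast, and the interaction of *TIF11* was 0.064 and that of *MES1* 0.0422. With a replicate left out the interaction ranged from −0.15 to 0.10 for *TIF11* and from −0.12 to 0.0191 for *MES1*. The interaction of *ALA1* lost its call in 4 of the fits with a replicate left out (adjusted p up to 0.073). The members' median in translation efficiency at 37°C, relative to all transcripts, was 0.05 with both replicates of RNA-Seq and −0.01 to 0.09 with 1 replicate left out. The cause was not tested. Extension values outside *sup45-ts* yeast at 37°C rest on 96 to 397 footprints at 25°C and 20 in *SUP45* yeast at 37°C, which limits them.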
